A study of Mus musculus with 10 samples.

Results

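The genes of smooth muscle contraction and of the transforming growth factor beta (TGF-beta) response were followed here in mouse embryonic fibroblasts (MEFs), the stromal cells that protect acute lymphoblastic leukemia (ALL) cells in co-culture. The list names 36 genes, 17 of the contractile filament and its regulators and 19 ligands, binding proteins, receptors, Smads and matrix targets of TGF-beta. Each gene was read by its single-symbol probeset with the highest mean over the 10 arrays, and all 36 had such a probeset among the 19938 genes and 35557 probesets of the table. Only Des, the gene of the muscle filament desmin, rose in MEFs + ALL + nilotinib over MEFs + DMSO, by 0.90 ± 0.10 on the log2 scale (SE, n = 3 each).

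Fibroblasts under tension or TGF-beta can turn into myofibroblasts, which build stress fibres of smooth muscle actin and secrete matrix. TGF-beta is secreted in a latent form that binding proteins hold in the matrix, and once released it signals through a receptor pair to Smad2 and Smad3, which enter the nucleus with Smad4, while Smad6, Smad7 and Skil damp the signal. The contractile genes are switched on by serum response factor at a short sequence called the CArG box, with coactivators that sense the actin pool.

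All MEFs were wild type, irradiated so that they no longer divided, and sampled on day 9. Of the 10 arrays, 3 held MEFs + ALL + nilotinib, 1 held MEFs + ALL + DMSO, 3 held MEFs + nilotinib and 3 held MEFs + DMSO. The Abl kinase inhibitor nilotinib was used at 16 nM, dissolved in DMSO. The ALL cells were 8093 cells, leukemic B-cell precursors of a Bcr/Abl transgenic mouse, and grew beyond a Transwell membrane. Replicates were separate dishes of MEFs, so p-values measure the spread between dishes. Further dishes of MEFs + ALL + DMSO had been set aside in the study for contamination by ALL cells, and the lone array was assumed to vary like the other groups. In RNA of a whole dish, fewer cells of a type and less RNA per cell cannot be told apart. Values are log2 of normalized signal, differences are in log2 units, and a gene is said to rise or fall where limma's p, adjusted over all 35557 probesets, was under 0.05.

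Some arrays stood apart before any member was considered. The MEFs + ALL + DMSO array stood alone on the leading principal component (30.8% of the variance), and replicate 2 of MEFs + ALL + nilotinib on the next (18.9%). The mean log2 signal of 14 pro-B and B cell markers was 7.99 on the MEFs + ALL + DMSO array and between 6.08 and 6.30 on the 9 others. For 12 pan-leukocyte markers it was 9.54 on that array and between 7.77 and 8.01 on the others. Of those 12, Arhgdib alone rose in MEFs + ALL + nilotinib over MEFs + DMSO, by 0.74 (adjusted p = 0.0266, limma). The mean of 11 macrophage markers ran from 8.31 to 8.65 over all arrays. Of the 12 fibroblast markers, 11 lay above the median of all values, 6.97, on average, and the list's mean ran from 10.75 to 11.03 over all arrays. Its genes differed from MEFs + DMSO in both directions in MEFs + ALL + nilotinib, 7 above and 5 below. S100a4 rose by 0.93 and Thy1 by 0.60, and 0 fell, with 0.627% of all probesets called. The means of all 36 members lay above the median of all values too, from 7.38 for Synpo2 to 13.7 for Thbs1.

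The start regions of the genes are shown because a control sequence is known for contractile genes, and because Des is the member that rose. RefSeq tables of GRCm38.p6 held promoters of 26 of the 36 members, and the 250 bases before each start site were searched on both strands. A CArG box, taken strictly as CCWWWWWWGG (W is A or T), lay in the windows of Myl9, Cnn2 and Vcl. That was 9.38% of 32 member promoters against 1.47% of 32851 promoters of all genes. It was 18.8% of the 16 promoters of 14 contractile members and 0% of the 16 of TGF-beta members. Boxes with other letters, or outside the windows, were not counted. Myl9, Cnn2 and Vcl are genes of the myosin light chain, of calponin 2 and of vinculin. The box (in capitals) begins 161, 56 and 227 bases before their start sites. Des, with no such match in its window, is shown beside them. A match is a description of the letters and not of a site in use.
Myl9, chr2:156775214-156775463 (+): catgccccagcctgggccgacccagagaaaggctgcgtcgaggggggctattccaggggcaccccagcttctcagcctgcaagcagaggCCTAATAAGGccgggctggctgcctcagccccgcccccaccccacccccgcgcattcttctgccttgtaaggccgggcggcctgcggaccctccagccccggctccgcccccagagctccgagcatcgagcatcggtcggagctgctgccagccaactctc
Cnn2, chr10:79988350-79988599 (+): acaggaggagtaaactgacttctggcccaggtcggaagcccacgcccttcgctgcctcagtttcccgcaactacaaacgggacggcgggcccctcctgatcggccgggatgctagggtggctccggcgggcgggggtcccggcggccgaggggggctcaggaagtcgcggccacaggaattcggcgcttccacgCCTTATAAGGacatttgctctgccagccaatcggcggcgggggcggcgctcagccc
Vcl, chr14:20929148-20929397 (+): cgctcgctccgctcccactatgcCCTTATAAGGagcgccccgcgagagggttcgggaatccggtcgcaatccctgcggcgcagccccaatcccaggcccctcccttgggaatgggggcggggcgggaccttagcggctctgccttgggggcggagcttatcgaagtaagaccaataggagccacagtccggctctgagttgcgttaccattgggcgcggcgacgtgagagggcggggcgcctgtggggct
Des, chr1:75360042-75360291 (+): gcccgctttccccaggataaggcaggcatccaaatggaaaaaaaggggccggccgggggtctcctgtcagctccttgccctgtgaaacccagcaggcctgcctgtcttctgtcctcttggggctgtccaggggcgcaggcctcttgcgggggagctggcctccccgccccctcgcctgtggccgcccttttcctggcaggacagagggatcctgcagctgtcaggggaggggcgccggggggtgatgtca
The Smad-binding sequence CAGACA, or TGTCTG on the other strand, lay in 21.9% of the 32 member promoters and in 17.1% of all promoters. The windows that held it belonged to Acta2, Cald1, Ltbp1, Mylk, Tgfb2, Tgfbr1 and Tnc.

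The study asked what drug-treated ALL cells do to the stromal layer, and here 1 of the 36 members rose over MEFs + DMSO and 0 fell. Of all probesets 0.627% were called, 0.503% as higher and 0.124% as lower. At an unadjusted p under 0.05 there were 15 members, 10 above and 5 below MEFs + DMSO, against 16.2% of all probesets, 9.5% above and 6.72% below. All 3 arrays of MEFs + ALL + nilotinib lay above all 3 of MEFs + DMSO for 14 members and below them for 10, against 14.1% and 10.6% of all probesets. Over the highest-mean probeset of each gene the shares were 16.3% and 11.7%. The members' median SD was 0.0412 in MEFs + ALL + nilotinib, 0.0789 in MEFs + nilotinib and 0.0328 in MEFs + DMSO. For all probesets it was 0.128, 0.11 and 0.0911. Smaller differences can therefore part the groups for members, here and in the counts without overlap below. The median difference of the members was 0.01, and that of all probesets 0.00. Contractile genes had a median of 0.15, with 11 of 17 above without overlap and 3 below, and TGF-beta genes a median of -0.05, with 3 of 19 above and 7 below.

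**Figure D1:**
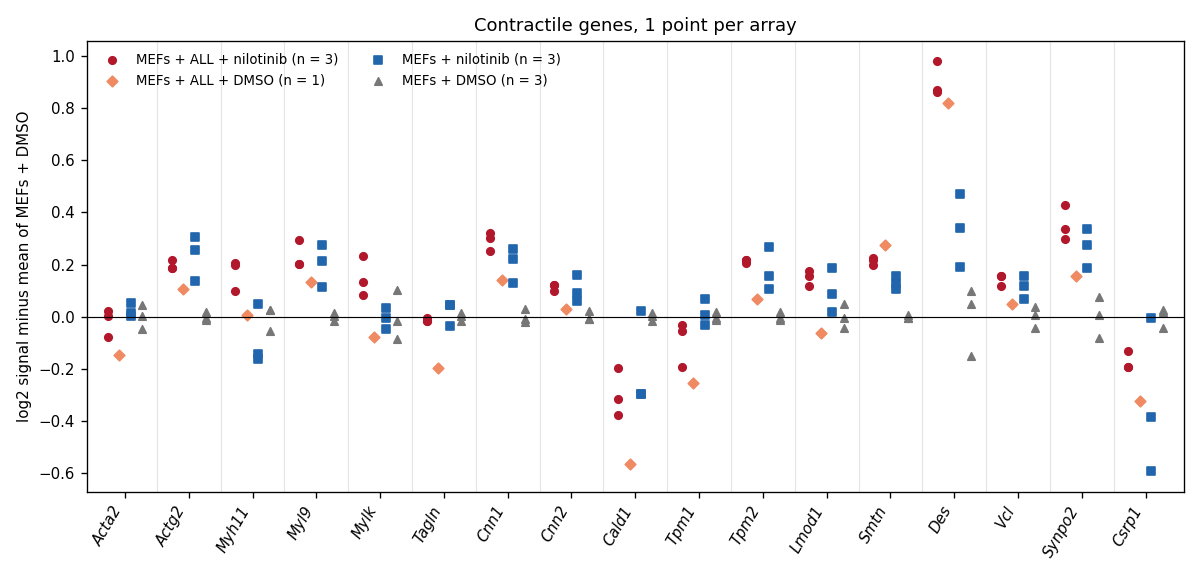
Log2 signal of the 17 contractile genes on each of the 10 arrays, minus the gene's mean over MEFs + DMSO. Points are arrays, coloured by group, and Des stands farthest above the line, by 0.90 on average in MEFs + ALL + nilotinib and by 0.82 on the MEFs + ALL + DMSO array.

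Desmin forms the intermediate filaments that tie together the contractile units of muscle. Des had log2 values of 10.33, 10.22 and 10.21 in MEFs + ALL + nilotinib, 10.17 in MEFs + ALL + DMSO, 9.54, 9.82 and 9.69 in MEFs + nilotinib, and 9.45, 9.40 and 9.20 in MEFs + DMSO. The 4 arrays with ALL cells were the highest, the MEFs + nilotinib arrays came next, and no groups of 3 overlapped. Des rose 1.87-fold in MEFs + ALL + nilotinib over MEFs + DMSO (adjusted p = 0.0136, limma). It ranked 16 among the differences of 19938 genes, counted from the highest. The difference was 0.57 ± 0.10 over MEFs + nilotinib (adjusted p = 0.0823) and 0.33 ± 0.10 for MEFs + nilotinib over MEFs + DMSO (adjusted p = 0.361), and neither passed. These comparisons share arrays and are not independent. The call over MEFs + DMSO was lost without MEFs + ALL + nilotinib replicate 1 (adjusted p = 0.0733) or replicate 3 (0.0563), and without MEFs + DMSO replicate 2 (0.0804) or replicate 3 (0.0715), with differences between 0.83 and 0.95.

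Desmin is also made by skeletal and cardiac muscle cells and by pericytes, the contractile cells of small vessels. Of 18 skeletal muscle markers 0 passed in MEFs + ALL + nilotinib over MEFs + DMSO, 12 lay below the median of all values, and the list's mean was 6.49 to 6.58 in MEFs + ALL + nilotinib and 6.57 to 6.61 in MEFs + DMSO. The muscle regulators Myod1 and Myog, with means of 6.50 and 6.05, were among the 12. The skeletal markers Acta1, Tnnt3, Tnni2, Actn3, Mymk and Trdn lay above that median, with a mean of 9.17 for Acta1. For 9 cardiac markers 0 passed, with list means of 6.84 to 6.95 in MEFs + ALL + nilotinib and 6.90 to 7.05 in MEFs + DMSO. Of these 9, 5 lay below the median of all values, and Nppb, Tnnt2, Actc1 and Nkx2-5 lay above it. Of 8 pericyte markers 1 passed, the aminopeptidase gene Anpep, which rose by 0.46 (adjusted p = 0.0379). The pericyte list's mean was 8.59 to 8.66 in MEFs + ALL + nilotinib, 8.33 in MEFs + ALL + DMSO, 8.47 to 8.51 in MEFs + nilotinib and 8.42 to 8.56 in MEFs + DMSO, and its part in the rise of Des was not tested. Over the 8 pericyte markers the median difference in MEFs + ALL + nilotinib over MEFs + DMSO was 0.20. Without overlap 5 lay above and 2 below, against 14.1% and 10.6% of all probesets. The differences of the 7 that did not pass were 0.33 for Kcnj8, 0.24 for Cspg4, 0.22 for Higd1b, 0.18 for Abcc9, 0.02 for Pdgfrb, -0.18 for Notch3 and -0.37 for Rgs5.

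Other genes of the contractile apparatus stood above MEFs + DMSO by less. Synpo2, which encodes an actin-bundling protein of the Z-disc, had values of 7.48, 7.61 and 7.52 in MEFs + ALL + nilotinib, 7.34 in MEFs + ALL + DMSO, 7.52, 7.37 and 7.46 in MEFs + nilotinib, and 7.26, 7.19 and 7.10 in MEFs + DMSO. The 7 arrays with the drug or with ALL cells all lay above the 3 of MEFs + DMSO, and the difference in MEFs + ALL + nilotinib was 0.35 ± 0.07 (adjusted p = 0.0775). Cnn1, the gene of calponin 1, which binds actin and slows the myosin motor, had 11.70, 11.72 and 11.65 in MEFs + ALL + nilotinib, 11.54 in MEFs + ALL + DMSO, 11.53, 11.66 and 11.62 in MEFs + nilotinib, and 11.43, 11.38 and 11.39 in MEFs + DMSO. Its difference over MEFs + DMSO was 0.29 ± 0.06 in MEFs + ALL + nilotinib (adjusted p = 0.0816) and 0.21 ± 0.06 in MEFs + nilotinib (adjusted p = 0.362), without overlap in either.

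Myl9, the gene of the regulatory light chain whose phosphorylation sets smooth muscle myosin in motion, carries one of the CArG boxes printed above. It had 12.64, 12.73 and 12.64 in MEFs + ALL + nilotinib, 12.57 in MEFs + ALL + DMSO, 12.55, 12.71 and 12.65 in MEFs + nilotinib, and 12.45, 12.42 and 12.44 in MEFs + DMSO. The MEFs + DMSO arrays were the lowest, and the co-cultures and MEFs + nilotinib overlapped, with differences over MEFs + DMSO of 0.23 ± 0.06 in MEFs + ALL + nilotinib (adjusted p = 0.144) and 0.20 ± 0.06 in MEFs + nilotinib (adjusted p = 0.369). Cnn2 and Vcl, the other genes with a CArG box in the window, differed from MEFs + DMSO by 0.11 and 0.14 in MEFs + ALL + nilotinib, and by 0.10 and 0.11 in MEFs + nilotinib.

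The actin gene that defines myofibroblasts did not pass in any comparison. Acta2, the gene of smooth muscle actin, had 13.50, 13.42 and 13.52 in MEFs + ALL + nilotinib, 13.35 in MEFs + ALL + DMSO, 13.50, 13.55 and 13.51 in MEFs + nilotinib, and 13.54, 13.45 and 13.50 in MEFs + DMSO. Tagln, which encodes the actin-binding protein transgelin, had 13.04, 13.05 and 13.04 in MEFs + ALL + nilotinib, 12.86 in MEFs + ALL + DMSO, 13.02, 13.10 and 13.10 in MEFs + nilotinib, and 13.06, 13.07 and 13.04 in MEFs + DMSO. For both genes the 9 replicated arrays overlapped between groups and the lone MEFs + ALL + DMSO array was the lowest. Their differences in MEFs + ALL + nilotinib over MEFs + DMSO were -0.02 ± 0.06 for Acta2 (adjusted p = 0.905) and -0.01 ± 0.05 for Tagln (adjusted p = 0.921).

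Of the remaining contractile genes, Actg2, which encodes the enteric smooth muscle actin, differed from MEFs + DMSO by 0.20 in MEFs + ALL + nilotinib and 0.23 in MEFs + nilotinib. Tpm2, which encodes a tropomyosin that lies along the actin filament, differed by 0.21 and Smtn, which encodes the stress fibre protein smoothelin, by 0.22 in MEFs + ALL + nilotinib over MEFs + DMSO. The differences were 0.17 for Myh11, the smooth muscle myosin heavy chain, 0.15 for Mylk, the kinase of the light chain, and 0.15 for Lmod1, a nucleator of actin filaments. Below MEFs + DMSO lay Tpm1, a second tropomyosin, by -0.09, and Csrp1, a LIM protein of the actin cytoskeleton, by -0.17. Among these 8 genes the smallest adjusted p was 0.113, for Smtn.

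Cald1 lay below MEFs + DMSO. It encodes caldesmon, which holds back the contact of myosin with actin, and had 11.90, 11.84 and 12.02 in MEFs + ALL + nilotinib, 11.65 in MEFs + ALL + DMSO, 12.24, 11.92 and 11.92 in MEFs + nilotinib, and 12.23, 12.22 and 12.20 in MEFs + DMSO. Every array of MEFs + ALL + nilotinib lay below MEFs + DMSO, while replicate 1 of MEFs + nilotinib lay beside the MEFs + DMSO arrays. The difference in MEFs + ALL + nilotinib over MEFs + DMSO was -0.30 ± 0.10 (adjusted p = 0.19).

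**Figure D2:**
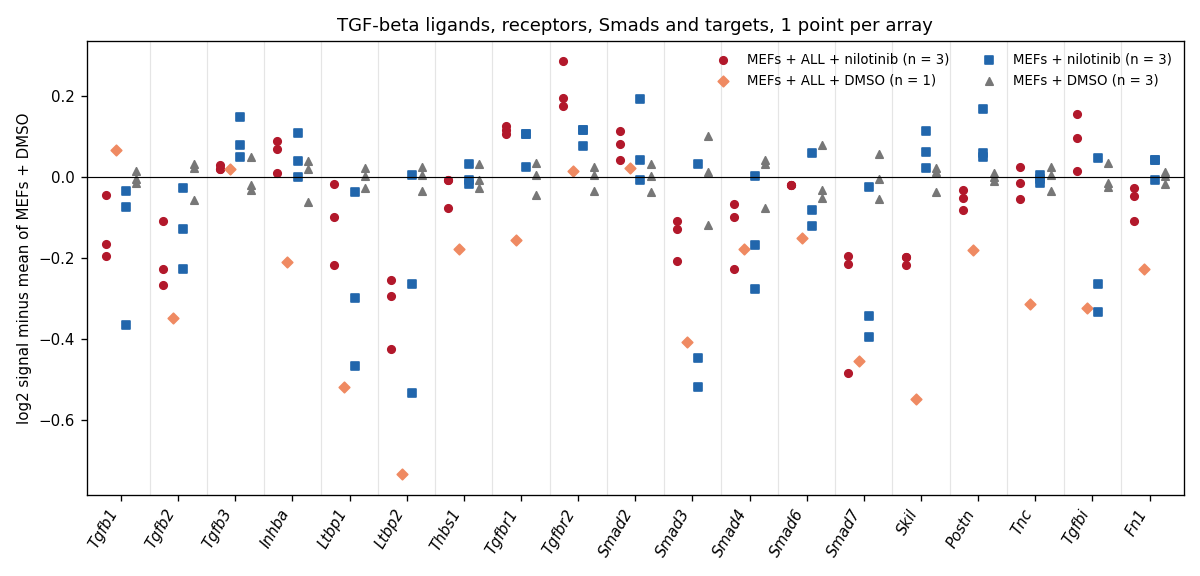
Log2 signal of the 19 TGF-beta genes on each of the 10 arrays, minus the gene's mean over MEFs + DMSO. Points are arrays, coloured by group, and the MEFs + ALL + DMSO array lies below the line for 15 of the 19 genes, with Ltbp2 lowest at -0.73.

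The genes of the TGF-beta ligands did not pass. Tgfb1 had 10.24, 10.36 and 10.21 in MEFs + ALL + nilotinib, 10.47 in MEFs + ALL + DMSO, 10.33, 10.04 and 10.37 in MEFs + nilotinib, and 10.40, 10.39 and 10.42 in MEFs + DMSO. The drug-treated arrays, with or without ALL cells, lay below the MEFs + DMSO arrays, and the difference in MEFs + ALL + nilotinib was -0.13 ± 0.09 (adjusted p = 0.514). Tgfb2 had 10.07, 10.11 and 10.23 in MEFs + ALL + nilotinib, 9.99 in MEFs + ALL + DMSO, 10.31, 10.11 and 10.21 in MEFs + nilotinib, and 10.36, 10.37 and 10.28 in MEFs + DMSO. The co-cultures lay below MEFs + DMSO, by -0.20 ± 0.08 in MEFs + ALL + nilotinib (adjusted p = 0.249). Tgfb3 had 12.26, 12.25 and 12.25 in MEFs + ALL + nilotinib, 12.25 in MEFs + ALL + DMSO, 12.28, 12.38 and 12.31 in MEFs + nilotinib, and 12.28, 12.21 and 12.20 in MEFs + DMSO. The co-cultures lay within the range of MEFs + DMSO, with a difference of 0.03 ± 0.06 in MEFs + ALL + nilotinib (adjusted p = 0.861). Inhba, which encodes the activin A subunit, and Thbs1, the gene of thrombospondin 1, which frees latent TGF-beta, differed by 0.06 and -0.03.

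Ltbp1 and Ltbp2 encode relatives of fibrillin, of which LTBP1 binds latent TGF-beta in the matrix. Ltbp2 had 11.60, 11.77 and 11.73 in MEFs + ALL + nilotinib, 11.29 in MEFs + ALL + DMSO, 12.03, 11.49 and 11.76 in MEFs + nilotinib, and 12.05, 12.03 and 11.99 in MEFs + DMSO. The co-cultures lay below MEFs + DMSO, and the MEFs + nilotinib arrays covered a range wider than any other group's. Its difference in MEFs + ALL + nilotinib over MEFs + DMSO was -0.32 ± 0.12 (adjusted p = 0.254), the lowest of the 36 and number 506 from the lowest of 19938 genes. For Ltbp1 the difference was -0.11 ± 0.11 (adjusted p = 0.656).

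The receptor genes Tgfbr1 and Tgfbr2 lay above both groups of MEFs alone on all 3 arrays of MEFs + ALL + nilotinib. The differences over MEFs + DMSO were 0.12 ± 0.06 for Tgfbr1 (adjusted p = 0.356) and 0.22 ± 0.06 for Tgfbr2 (adjusted p = 0.136), and over MEFs + nilotinib 0.04 and 0.12. On the MEFs + ALL + DMSO array Tgfbr1 had 9.47 and Tgfbr2 had 9.98, against means of 9.62 and 9.97 in MEFs + DMSO.

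Among the inhibitors of the pathway, Smad7, which sends the receptor to degradation, had 9.88, 9.59 and 9.86 in MEFs + ALL + nilotinib, 9.62 in MEFs + ALL + DMSO, 10.05, 9.68 and 9.73 in MEFs + nilotinib, and 10.13, 10.07 and 10.02 in MEFs + DMSO. The arrays with ALL cells all lay below MEFs + DMSO, with replicate 2 of MEFs + ALL + nilotinib the lowest. The difference was -0.30 ± 0.12 (adjusted p = 0.265), and -0.20 without that replicate. Skil encodes SnoN, a corepressor that TGF-beta itself removes and then restores, and it had 10.57, 10.57 and 10.55 in MEFs + ALL + nilotinib, 10.22 in MEFs + ALL + DMSO, 10.79, 10.88 and 10.83 in MEFs + nilotinib, and 10.79, 10.78 and 10.73 in MEFs + DMSO. The co-cultures lay below all arrays of MEFs alone, by -0.20 ± 0.05 in MEFs + ALL + nilotinib over MEFs + DMSO (adjusted p = 0.144) and -0.27 ± 0.05 over MEFs + nilotinib (adjusted p = 0.147). The signalling genes Smad2, Smad3 and Smad4 and the inhibitor Smad6 differed from MEFs + DMSO by 0.08, -0.15, -0.13 and -0.02 in MEFs + ALL + nilotinib.

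The matrix targets lay close to MEFs + DMSO. Differences in MEFs + ALL + nilotinib over MEFs + DMSO were -0.05 for Postn (periostin), -0.01 for Tnc (tenascin C), 0.09 for Tgfbi, whose name records its induction by TGF-beta, and -0.06 for Fn1 (fibronectin). The smallest adjusted p among them was 0.609. Over MEFs + nilotinib the differences were -0.15, -0.01, 0.28 and -0.09.

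With the drug held the same, MEFs + ALL + nilotinib over MEFs + nilotinib, 0 of the 36 members passed, with 0.186% of all probesets called. At an unadjusted p under 0.05 there were 5 members (Des, Myh11 and Tgfbi above, Skil and Postn below), against 9.27% of all probesets. Limma with trend and robust called Des and Skil, each at an adjusted p of 0.0432, and limma with array weights called 0. Groups did not overlap for 6 members above and 5 below, against 7.8% and 6.62% of all probesets.

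Nilotinib on MEFs without ALL cells gave 0 calls among the members and among all probesets (0%), with limma's own, trend-and-robust and array-weighted fits alike. At an unadjusted p under 0.05 there were 9 members, 7 above and 2 below MEFs + DMSO, and 3985 probesets (11.2%), 6.77% above and 4.44% below. Of the 7 above, each was a contractile gene: Actg2, Myl9, Cnn1, Tpm2, Smtn, Des and Synpo2, with differences between 0.13 and 0.33 and a smallest adjusted p of 0.354. The 2 below were Csrp1 (-0.32) and Ltbp1 (-0.27). MEFs + nilotinib lay above MEFs + DMSO without overlap for 13 members and below for 2, against 13.6% and 7.05% of all probesets. The median difference was 0.10 over the 17 contractile genes, 0.00 over the 19 TGF-beta genes and 0.00 over all probesets. Both drug-treated groups were set against the same MEFs + DMSO arrays.

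**Figure D3:**
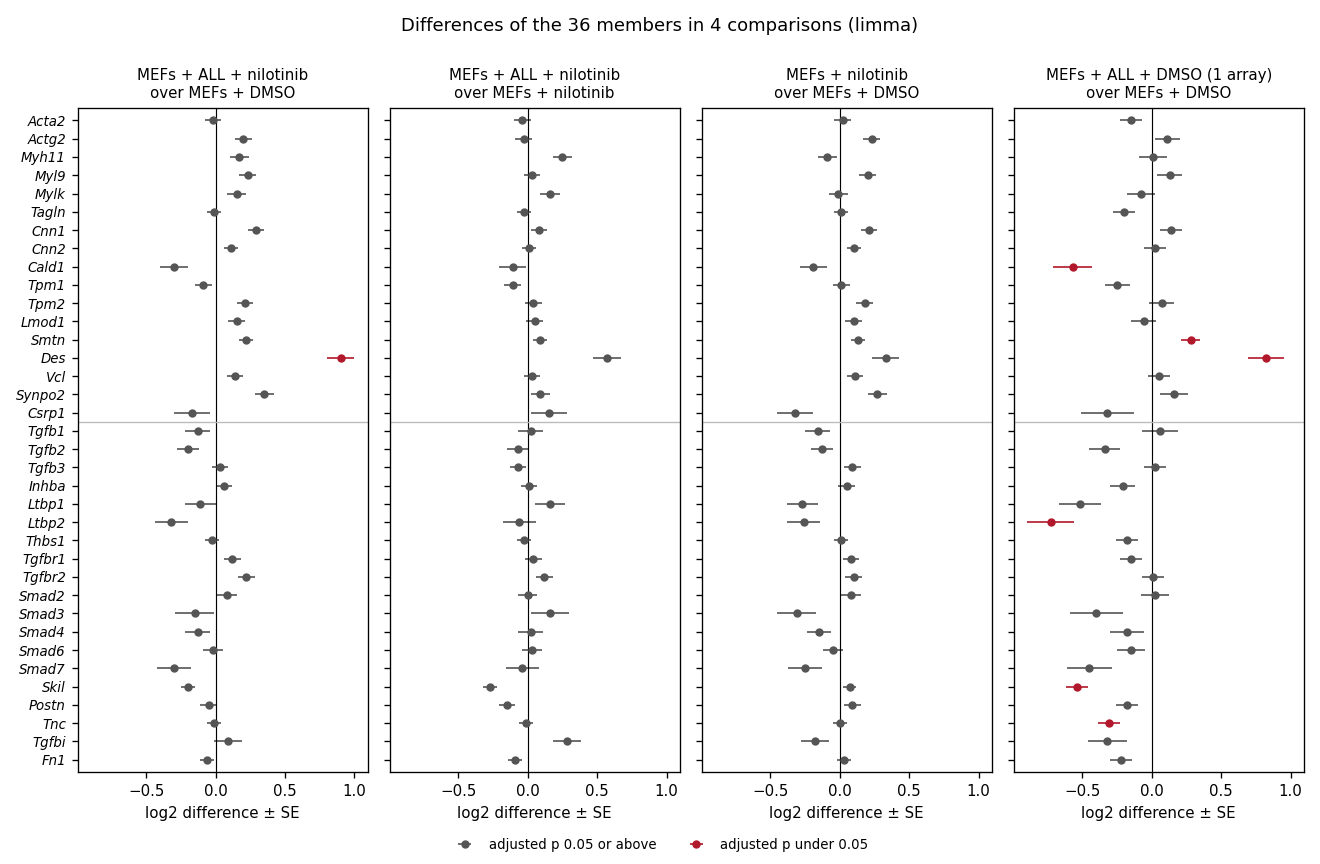
Log2 differences of the 36 members with their standard errors (limma) in 4 comparisons, contractile genes above the grey line and TGF-beta genes below it. Red points have an adjusted p under 0.05, which are Des over MEFs + DMSO in MEFs + ALL + nilotinib, and Cald1, Smtn, Des, Ltbp2, Skil and Tnc on the MEFs + ALL + DMSO array.

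The MEFs + nilotinib dishes disagreed on 5 members, Csrp1, Ltbp1, Ltbp2, Smad3 and Tgfbi, whose SD in that group exceeded 0.2, while 0 members exceeded it in the other replicated groups. Csrp1 had 12.35 in replicate 1 and 11.76 and 11.97 in the others, against 12.31, 12.38 and 12.37 in MEFs + DMSO. Smad3 had 9.61 in replicate 1 and 9.06 and 9.13 in the others, against 9.68, 9.59 and 9.46 in MEFs + DMSO. Replicate 1 lay among the MEFs + DMSO arrays and the others below them. Ltbp1 had 10.92, 10.49 and 10.66 in MEFs + nilotinib, against 10.98, 10.93 and 10.96 in MEFs + DMSO, with replicate 1 just below the MEFs + DMSO arrays and the others further below. Tgfbi had 9.87, 9.49 and 9.56 in MEFs + nilotinib, against 9.80, 9.86 and 9.81 in MEFs + DMSO, with replicate 1 just above the MEFs + DMSO arrays and the others below them. Without replicate 1, Csrp1 differed by -0.49 from MEFs + DMSO (adjusted p = 0.0569), and 57 probesets in all were called.

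On the lone MEFs + ALL + DMSO array, Des and Smtn were called as higher than in MEFs + DMSO and Skil, Ltbp2, Cald1 and Tnc as lower. These 6 of 36 members stand beside 10.3% of all probesets called, 6.67% as higher and 3.59% as lower. The median difference was -0.15 over the members, -0.21 over the 19 TGF-beta genes, 0.02 over the 17 contractile genes and -0.07 over all probesets, and 14 of the 36 members lay above MEFs + DMSO, against 41.1% of all probesets. This array carried the leukocyte transcripts given above (11 of 14 B cell markers and 11 of 12 pan-leukocyte markers were called as higher), and their part in these values was not tested.

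Des rose there by 0.82 ± 0.13 (adjusted p = 0.00691), and Skil fell by 0.54 ± 0.08 (adjusted p = 0.00332), with values of 10.17 and 10.22 that lay outside the ranges of MEFs + DMSO. Both calls held without each MEFs + DMSO replicate in turn. Smtn had 9.87, 9.88 and 9.85 in MEFs + ALL + nilotinib, 9.93 in MEFs + ALL + DMSO, 9.78, 9.76 and 9.81 in MEFs + nilotinib, and 9.65, 9.65 and 9.66 in MEFs + DMSO. Its groups formed 4 steps with no overlap, and it rose on the MEFs + ALL + DMSO array by 0.28 ± 0.07 (adjusted p = 0.047). Tnc had 12.53, 12.49 and 12.57 in MEFs + ALL + nilotinib, 12.23 in MEFs + ALL + DMSO, 12.55, 12.53 and 12.54 in MEFs + nilotinib, and 12.57, 12.55 and 12.51 in MEFs + DMSO. Only the lone array stood away from the rest, where Tnc fell by 0.31 ± 0.08 (adjusted p = 0.0377). Ltbp2 fell by 0.73 ± 0.17 (adjusted p = 0.0331), number 152 from the lowest of 19938 genes, and Cald1 fell by 0.57 ± 0.14 (adjusted p = 0.0347). The calls of Smtn, Tnc, Ltbp2 and Cald1 were lost when any MEFs + DMSO replicate was left out, with adjusted p between 0.0714 and 0.112.

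**Figure D4:**
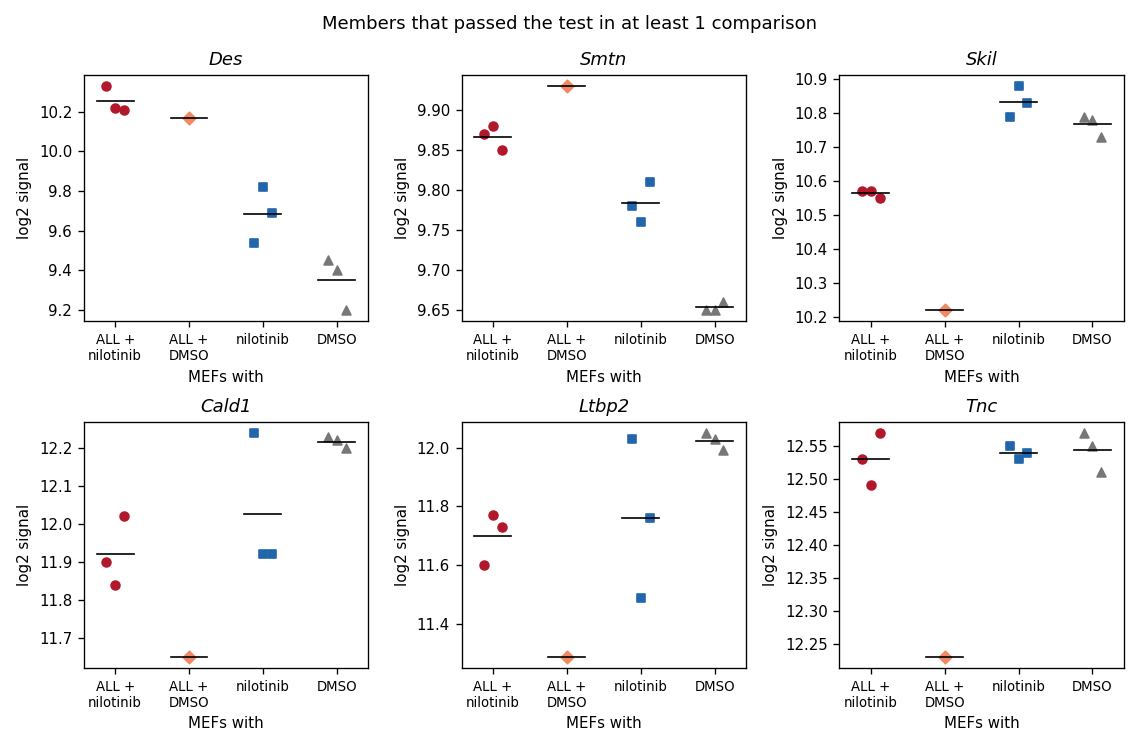
Log2 signal of the 6 members that passed the test in at least 1 comparison, with 1 point per array and a line at each group's mean. Des is highest in the groups with ALL cells, Smtn falls into 4 separate steps, and Skil, Cald1, Ltbp2 and Tnc are lowest on the MEFs + ALL + DMSO array.

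Drug-treated co-cultures stood above the DMSO co-culture for most of the list. In MEFs + ALL + nilotinib over MEFs + ALL + DMSO, 34 of the 36 members had a positive difference, against 61.1% of all probesets, with medians of 0.15 and 0.07. Skil alone was called, as higher by 0.34 (adjusted p = 0.0484), with 4.34% of all probesets called and 0.582% as higher, and this call was lost without any 1 of the MEFs + ALL + nilotinib replicates (adjusted p between 0.0639 and 0.106). Tgfb1 and Smtn were the members with a negative difference, -0.20 and -0.06. The comparison rests on the array with leukocyte transcripts, whose part was not tested.

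Whether ALL cells made another difference under nilotinib than under DMSO was tested as an interaction. Of the members 0 passed, against 3.95% of all probesets, and 7 of 36 had an unadjusted p under 0.05, each with a positive interaction. Of all probesets 19.5% passed that level, 9.23% with a positive interaction and 10.3% with a negative one. For Des the interaction was -0.25 (adjusted p = 0.43), with ALL cells adding 0.57 under nilotinib and 0.82 under DMSO. The largest were 0.68 for Ltbp1 (adjusted p = 0.0992) and 0.67 for Ltbp2 (adjusted p = 0.138). Limma with trend and robust called 1 member (Tnc) and limma with array weights 2 (Ltbp1 and Tgfbi). Without replicate 1 of MEFs + nilotinib 6 members were called, namely Cald1, Csrp1, Ltbp1, Ltbp2, Smad3 and Tgfbi. They include the 5 named above for their spread in that group. Leaving out replicate 1 narrows that spread, so the overlap is not a separate result.

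Across the 9 replicated arrays, members were also compared by how their values departed from the group means. Skil and Vcl departed most like Des (Pearson's r = 0.94 for both, Spearman's rho = 0.90 and 0.87, n = 9 arrays). Ltbp1 departed most like Ltbp2 (r = 0.98, rho = 0.93), and the spread of both was widest among the MEFs + nilotinib dishes. Smtn departed most like Lmod1 (r = 0.92, rho = 0.87), Cald1 like Smad7 (r = 0.88, rho = 0.78) and Tnc like Fn1 (r = 0.74, rho = 0.75). The arrays are shared by all members, and these values are given as a description.

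The wider pathways were read through lists of genes that are not members. Of 37 other contractile and actin cytoskeleton genes, 1 rose in MEFs + ALL + nilotinib over MEFs + DMSO and 0 fell. Of all probesets 0.503% were called as higher and 0.124% as lower, and the list's median difference was 0.02. The gene that rose was Crip1, which encodes a small LIM protein, by 0.51 ± 0.06 (adjusted p = 0.0188). Crip1 had 8.40, 8.32 and 8.27 in MEFs + ALL + nilotinib, 9.89 in MEFs + ALL + DMSO, 7.96, 7.98 and 7.96 in MEFs + nilotinib, and 7.76, 7.86 and 7.84 in MEFs + DMSO. Lower differences, none of which passed, were -0.67 for the myosin phosphatase subunit gene Ppp1r12a, -0.54 for the filament gene Nexn and -0.45 for the nonmuscle myosin gene Myh10, and higher ones 0.27 for the integrin gene Itga5 and 0.26 for the adhesion gene Parva. Srf, the gene of serum response factor, and its coactivator genes Myocd, Mrtfa and Mrtfb differed by -0.04, 0.03, 0.11 and 0.14. On the MEFs + ALL + DMSO array Crip1 rose by 2.07, while Myh10 and the intermediate filament gene Synm fell by 0.84 and 0.41.

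Of 48 other TGF-beta pathway genes, 2 rose in MEFs + ALL + nilotinib over MEFs + DMSO and 0 fell, with a median of 0.02. Of all probesets 0.503% were called as higher and 0.124% as lower. Both genes that rose encode proteins that handle latent TGF-beta, but other such genes did not pass. Their differences were -0.51 for Ltbp3, 0.08 for Ltbp4, 0.02 for Nrros, and -0.05 and -0.07 for the integrin genes Itgav and Itgb6. The members Ltbp1 and Thbs1 differed by -0.11 and -0.03. Lrrc32 encodes GARP, which docks latent TGF-beta on the cell surface, and had 11.21, 11.42 and 11.26 in MEFs + ALL + nilotinib, 11.15 in MEFs + ALL + DMSO, 10.70, 10.56 and 10.77 in MEFs + nilotinib, and 10.59, 10.53 and 10.49 in MEFs + DMSO. The arrays with ALL cells lay above all arrays of MEFs alone. Lrrc32 rose by 0.76 ± 0.08 over MEFs + DMSO (adjusted p = 0.0136) and by 0.62 over MEFs + nilotinib (adjusted p = 0.0382), and by 0.61 on the MEFs + ALL + DMSO array (adjusted p = 0.0135). Itgb8 encodes an integrin subunit that activates latent TGF-beta, and had 8.72, 8.68 and 8.83 in MEFs + ALL + nilotinib, 8.55 in MEFs + ALL + DMSO, 8.31, 8.37 and 8.27 in MEFs + nilotinib, and 8.30, 8.34 and 8.18 in MEFs + DMSO. It rose by 0.47 ± 0.07 over MEFs + DMSO (adjusted p = 0.0344). Leaving out single arrays moved the adjusted p to between 0.032 and 0.0935 for Lrrc32, between 0.0522 and 0.145 for Itgb8 and between 0.0384 and 0.0935 for Crip1, so that Lrrc32 and Crip1 each passed in 1 of the 6 such fits and Itgb8 in 0.

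Other pathway genes differed without passing. In MEFs + ALL + nilotinib over MEFs + DMSO the differences were 0.37 for the activin subunit gene Inhbb, -0.51 for the latent binding protein gene Ltbp3, -0.36 for Col1a1 and -0.33 for Col1a2 of type I collagen. On the MEFs + ALL + DMSO array 8 of the 48 were called, against 10.3% of all probesets. The coreceptor genes Tgfbr3 and Eng rose by 0.45 and 0.62, besides Lrrc32, and Nrros, which tethers latent TGF-beta on myeloid cells, rose by 2.11. The activin receptor genes Acvr1 and Acvr2a fell by 0.73 and 0.40, the feedback inhibitor gene Pmepa1 fell by 0.53 and Col1a2 fell by 0.66. The part of the leukocyte transcripts on that array in these values was not tested.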

How the data were processed

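RNA of the MEF layer was measured on 10 Mouse Gene 1.0 ST arrays. The deposited values are log2 of RMA-normalized signal, 1 column per array, and Partek is named in the authors' processing notes (the sources used here do not settle its version). They carry no detection call. RMA pulls arrays to a common distribution and cannot show a change of total RNA. Array medians ran from 6.94 to 7.01. Precision is limited by how many arrays there are.

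Of 35557 probesets, 21789 had a single gene symbol, 1621 had several and 12147 had none in the platform's annotation. Each member had 1 single-symbol probeset. Groups, taken from the labels, were compared with limma 3.58.1 in R 4.3.3 (lmFit and eBayes, two-sided) on all 10 arrays, the 4 groups sharing 1 estimate of the spread, with Benjamini-Hochberg adjustment over all probesets. The fit was tested on simulated data. The members and the lists of other genes and markers were chosen with earlier results of these data known. Values on every array were given for members past the test in the replicated comparisons, the 4 largest differences of each sign in MEFs + ALL + nilotinib over MEFs + DMSO, the 4 largest on the MEFs + ALL + DMSO array, Acta2, Tagln and the TGF-beta ligands. Values of Smtn, Tnc, Csrp1, Smad3, Ltbp1 and Tgfbi, of Crip1, Lrrc32 and Itgb8, and the differences of Srf and its coactivators were added after they were seen. Alternatives were trend and robust, array weights, median centring, quantile normalization, leaving out the dimmest 25% of probesets, only the 2 groups compared, leaving out arrays, and a replicate block. Promoters came from RefSeq (GRCm38.p6).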

Additional observations from a re-analysis of the deposited data

Results flagged for a closer look

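The difference that ALL cells made was tested as an interaction with nilotinib, in which 3.95% of all probesets were called. Among the genes of both pathways, 3 that are not members were called. For these, ALL cells made another difference under nilotinib than under DMSO. The interaction was -1.71 for Crip1 (adjusted p = 3.75e-05, limma), with differences of 0.37 in MEFs + ALL + nilotinib over MEFs + nilotinib and 2.07 in MEFs + ALL + DMSO over MEFs + DMSO. For Nrros it was -2.03 (adjusted p = 0.000493), with differences of 0.08 with nilotinib and 2.11 with DMSO. For Eng, the gene of the coreceptor endoglin, it was -0.63 (adjusted p = 0.0127), with -0.01 with nilotinib and 0.62 with DMSO. All 3 rest on the single MEFs + ALL + DMSO array, on which the mean of 12 pan-leukocyte markers was 9.54 against 7.77 to 8.01 on the others, and the part of those transcripts was not tested.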

How the results depend on the processing

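The differences of the single genes followed through the alternatives kept their directions. For MEFs + ALL + nilotinib over MEFs + DMSO, where 223 probesets were called, the count was 476 with trend and robust, 1263 with array weights, 421 without the dimmest 25% of probesets, 12 with only the 2 groups compared and 8 to 99 when single arrays were left out. Members called as higher, 1 in the main fit, were 2 with trend and robust (Des and Cnn1), 4 with array weights (Des, Cnn1, Smtn and Synpo2), 2 with arrays centred on their medians and 2 without the dimmest 25% (each Des and Synpo2), 0 with only the 2 groups compared (Des at an adjusted p of 0.0607) and 0 to 1 without single arrays. Array weights called 1 member, Skil, as lower. Des was called in 8 of 14 alternatives (adjusted p between 0.00385 and 0.0804). For MEFs + ALL + nilotinib over MEFs + nilotinib, with 66 probesets, the counts were 117, 141 and 115 with trend and robust, array weights and without the dimmest 25%, 4 with the 2 groups alone and 12 to 36 without single arrays, and trend and robust called 1 member as higher and 1 as lower. For MEFs + nilotinib over MEFs + DMSO, 0 to 57 probesets were called without single arrays.

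On the MEFs + ALL + DMSO array over MEFs + DMSO, 3651 probesets were called, 6615 with array weights and 2137 to 2491 without single arrays. Members called as higher were 1 with centring and 1 with quantile normalization (Des in both), and members called as lower 10 with trend and robust and 9 with array weights. Without any 1 MEFs + DMSO array, 1 was higher (Des) and 1 lower (Skil). Without replicate 1 of MEFs + nilotinib, Des alone was higher and Cald1, Ltbp1, Ltbp2, Skil and Tnc were lower. In MEFs + ALL + nilotinib over MEFs + ALL + DMSO, members called as higher were 2 with trend and robust, array weights, quantile normalization or without the dimmest 25% (Skil and Tnc in each), 0 with centring, 0 without any 1 MEFs + ALL + nilotinib array and 1 (Tgfbi) without replicate 1 of MEFs + nilotinib. The median of the members there was 0.20 with quantile normalization, and that of the interaction 0.21. For the interaction, 1406 probesets were called, 2323 with array weights and 1008 to 1932 without single arrays, and members called as higher were 1 with trend and robust, 2 with array weights, 1 with quantile normalization and 0 to 6 without single arrays.

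The labels number the replicates, but deviations of same-numbered arrays correlated above 0.1 in only 2 of 9 pairs (r from -0.293 to 0.241). Between arrays of different numbers r ran from -0.259 to 0.389, so the numbers were not taken as pairs. With a replicate block, 8 probesets and 0 members were called in MEFs + ALL + nilotinib over MEFs + DMSO (Des at an adjusted p of 0.0723), 12 and 0 over MEFs + nilotinib, and 0 in MEFs + nilotinib over MEFs + DMSO.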
